A study of Mus musculus with 3 samples.

Results

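The Ebf family of the mouse has 4 members, Ebf1, Ebf2, Ebf3 and Ebf4, and all were among the 33353 genes listed in the expression table analysed here. They were taken as a named family and not ranked by a measured value. The family and the gene lists used below were, however, chosen with earlier results of these data known. Early B cell factors are transcription factors that bind DNA as pairs through a zinc-containing domain of their own and join other members through a helix-loop-helix. Ebf1 is best known for committing lymphoid precursors to the B cell fate, Ebf2 for brown fat, and Ebf1, Ebf2 and Ebf3 also act in the differentiation and migration of developing neurons, while Ebf4 is the least studied.

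The cells came from 3 Ednrb-/- mice (Ednrb-KO, lacking endothelin receptor type B) at postnatal day 14, labelled C57BL/6 although the stocks crossed to make them included mixed backgrounds, a model of Hirschsprung disease in which the distal bowel has no ganglia while the small intestine keeps them. Each mouse carried Wnt1-Cre and a tdTomato reporter, so that cells derived from the neural crest were sorted, and each mouse gave 1 library of the longitudinal muscle and myenteric plexus of the whole small intestine. In all, 2060 neurons passed the authors' selection, 354 from mouse 1, 1050 from mouse 2 and 656 from mouse 3. All 3 mice belong to 1 group, so each comparison was made between classes of neurons within the same animals, and wild-type cells were not analysed here.

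Depth differed between mice, with a median of 3734.5 unique molecular identifiers (UMIs) per cell in mouse 1, 9599.5 in mouse 2 and 9578.5 in mouse 3. Shares of cells with a UMI are therefore also given after each cell was thinned to 3000 UMIs, and levels are given as UMIs per 10000 UMIs of the cells. Ednrb, the targeted gene, had UMIs in 42.7, 68.9 and 58.8% of the cells of mice 1, 2 and 3, so reads over its 3′ end did not mark the deletion, and whether they lie outside the deleted part is not given in the sources used here. Mouse 1 stood apart: of the gene symbols with at least 0.5 UMIs per 10000, 62 were above 0 only there and 36 only in mice 2 and 3, although all 4 Ebf symbols were present in every mouse, and 1 cluster of 230 cells held mouse 1 cells alone. Summed neuron markers lay between 94.5 and 107 UMIs per 10000 in the 3 mice, while smooth muscle markers reached 77.6 in mouse 1 against 17.4 and 11.8 in mice 2 and 3. The B cell markers, which bear on Ebf1, summed to at most 0.118 UMIs per 10000 in any mouse, with Ms4a1 at 0 throughout. Droplet libraries also carry free RNA, whose part in single UMIs was not tested.

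In mouse GRCm38 coordinates with the GENCODE annotation, the genes lie on different chromosomes. Ebf1 (ENSMUSG00000057098.14) spans chr11:44617317-45008091 on the plus strand, Ebf2 (ENSMUSG00000022053.13) chr14:67233292-67430918 on the plus strand, Ebf3 (ENSMUSG00000010476.14) chr7:137193673-137314445 on the minus strand and Ebf4 (ENSMUSG00000053552.14) chr2:130295169-130370481 on the plus strand. All are annotated as protein coding. EBF proteins bind DNA at sites with the core CCCNNGGG, which reads the same on both strands, and the RefSeq promoters (GRCm38.p6, 250 bases before to 50 after the start) of Ebf1, Ebf3 and Ebf4 were searched for it. The core was in the promoter of Ebf3 and not in this window of Ebf1 or Ebf4, against 13.7% of all 32851 promoter entries, counted singly and not by gene. It is shown in capitals within 30 bases, 5′ to 3′ on the strand of the gene, at chr7:137314448-137314477, minus strand, 21 bases before the start.
Ebf3: acagcgccgctCCCGGGGGcttcgagtttt

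Ebf3 was detected in the most cells, followed by Ebf1, Ebf4 and Ebf2. Ebf3 UMIs were found in 12.4, 42.7 and 39.8% of the cells of mice 1, 2 and 3, and its level was 0.380, 0.724 and 0.797 UMIs per 10000 (0.634 ± 0.223, SD, n = 3). Mouse 1 was low for both measures, and this was not removed by thinning, after which the shares were 10.1, 19.0 and 20.9%. Ebf1 was found in 11.3, 19.4 and 20.4% of cells, at 0.649, 0.597 and 0.646 UMIs per 10000 (0.630 ± 0.0292). In contrast to Ebf3, the Ebf1 level was alike in the 3 mice, and thinning brought its shares to 10.5, 10.5 and 11.6%. Ebf4 UMIs lay in 2.82, 10.8 and 12.5% of cells, at 0.0786, 0.118 and 0.139 UMIs per 10000. Ebf2 was rare, with 40 UMIs in 36 cells of all 2060, which were 1.41, 1.62 and 2.13% of the cells of the 3 mice. UMIs count 3′ ends of transcripts and not reads per length, so the order of the genes is one of detection.

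**Figure D1:**
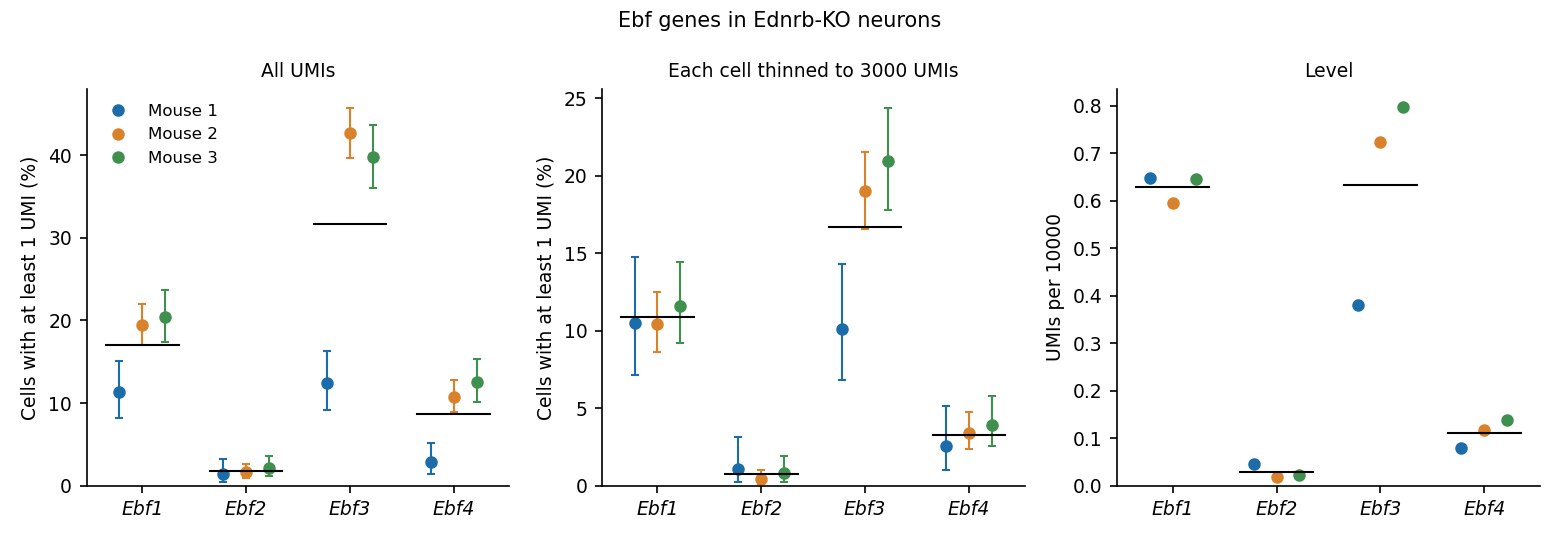
Share of cells with at least 1 UMI of each Ebf gene, with exact 95% binomial intervals, before (left) and after (middle) thinning each cell to 3000 UMIs, and level in UMIs per 10000 (right), for each mouse (points) with the mean of the 3 mice (line). Ebf1 sits between 0.597 and 0.649 UMIs per 10000 in all mice, whereas Ebf3 of mouse 1, at 0.380, lies below the 0.724 and 0.797 of mice 2 and 3.

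Most cells carried no more than 1 Ebf gene. None was detected in 947 cells (46.0%), 1 in 872 (42.3%), 2 in 223 (10.8%), 3 in 18 (0.874%), and no cell had all 4. The genes differed in how many UMIs a positive cell held. Ebf1 transcripts were concentrated, as 95 of its 378 positive cells (25.1%) held 4 or more UMIs and these cells carried 60.7% of all Ebf1 UMIs, up to 19 in 1 cell. For Ebf3, 56 of 753 positive cells (7.44%) held 4 or more, carrying 20.02% of its UMIs, and none of these cells was from mouse 1. Single UMIs made up 91.7% of both the Ebf2- and the Ebf4-positive cells, and no cell held more than 3 of either.

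Cells high in Ebf1 and cells high in Ebf3 differed in the genes that mark the classes of enteric neurons. Nos1 encodes neuronal nitric oxide synthase of inhibitory neurons, Chat the enzyme that makes acetylcholine, and the transcription factors Etv1 and Bnc2 mark the broad branches into which myenteric neurons divide. Etv1 was present in 57.6% of cells without Ebf1, 88.3% of cells with 1 to 3 Ebf1 UMIs and 95.8% of cells with 4 or more, and Nos1 in 45.6, 76.7 and 85.3%. Bnc2 went the other way, from 31.2 to 12.01 and 8.42%, and Chat was in 20.4, 9.54 and 10.53%. Over the same steps of Ebf3, Bnc2 was present in 19.97, 37.9 and 75.0% of cells and Chat in 12.1, 27.4 and 55.4%, while Etv1 was in 65.8, 61.8 and 33.9% and Nos1 in 50.6, 56.1 and 23.2%. The median depth also rose with each step, from 7671 to 12897 UMIs for Ebf1 and from 6825 to 11700.5 for Ebf3, and a deeper cell has more chance to show any gene.

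Co-detection was then compared with that expected if the genes were independent within each mouse, and with that expected from mouse and cell depth. Ebf1 and Ebf3 were found together in 135 cells, 0.929 times the number expected from mouse (exact 95% Poisson interval 0.779-1.10, counting error only) and 0.804 times that from mouse and depth (0.674-0.952). The mouse values of the depth-adjusted ratio were 1.42 (0.613-2.80, 8 cells), 0.852 (0.681-1.05) and 0.672 (0.484-0.908), so the interval excluded 1 in mouse 3 and not in mice 1 and 2, and without mouse 3 the pooled ratio was 0.883 (0.712-1.08). With the cluster of the cell as a further term the ratio was 0.930 (0.780-1.10). Ebf3 and Ebf4 shared 82 cells, 0.859 of the depth-adjusted expectation (0.683-1.07), Ebf1 and Ebf4 shared 40 (0.843, 0.603-1.15), and Ebf2 and Ebf3 shared 14 (0.889, 0.486-1.49). Ebf2 was seen with Ebf1 in 4 cells and with Ebf4 in 2, too few to place the ratio. Thus, of the 6 pairs, the depth-adjusted interval excluded 1 for Ebf1 and Ebf3, and not when the cluster entered the expectation.

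Ebf1 was found with Etv1 1.25 times (1.13-1.40) and with Nos1 1.32 times (1.17-1.47) the number expected from mouse and depth, and with Bnc2 0.330 times (0.238-0.447) and with Chat 0.424 times (0.298-0.584) that number. The Ebf1 and Bnc2 ratio was 0.173, 0.353 and 0.319 in mice 1, 2 and 3. For comparison, the ratio of Etv1 and Bnc2 themselves was 0.576 (0.505-0.655) and that of Nos1 and Chat 0.444 (0.363-0.539). Mouse 1 differed for Chat, with 4 cells and a ratio of 1.55 (0.422-3.97), against 0.464 and 0.313 in mice 2 and 3. Ebf3 had ratios of 1.203 with Bnc2 (1.07-1.35), 1.27 with Chat (1.11-1.45), 0.830 with Etv1 (0.755-0.911) and 0.896 with Nos1 (0.811-0.988), each closer to 1 than those of Ebf1.

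**Figure D2:**
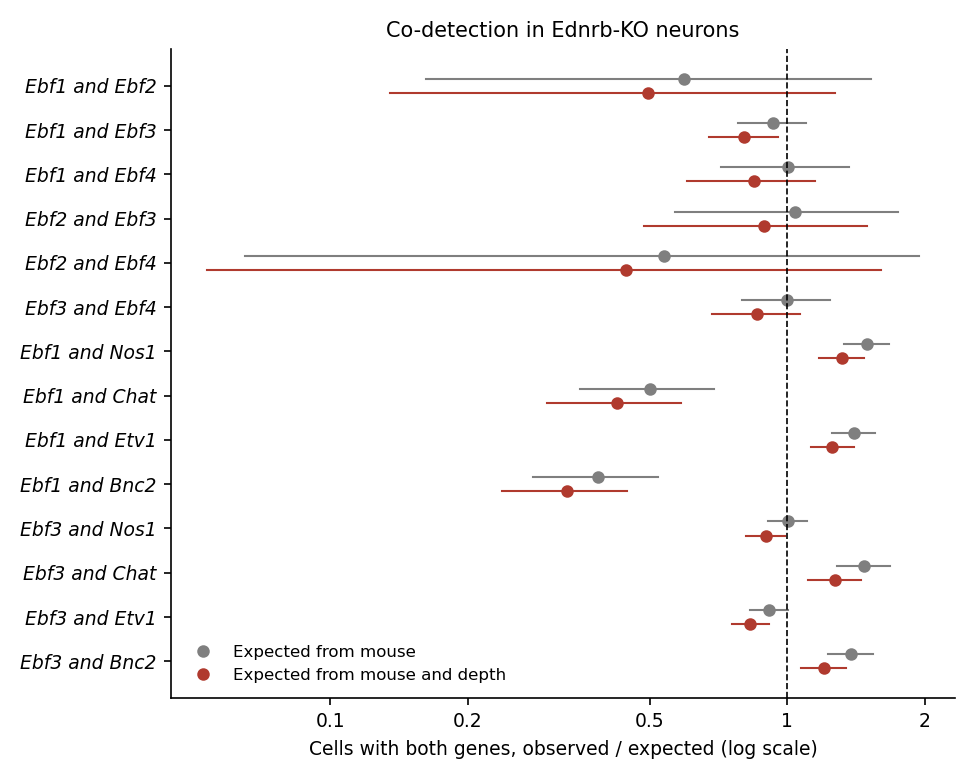
Cells with both genes of a pair, observed over expected, on a log axis, with exact 95% Poisson intervals, pooled over the 3 mice; grey, expected from the mouse; red, expected from mouse and cell depth. The red points of the 6 pairs of Ebf genes lie between 0.444 and 0.889, with wide intervals for Ebf2, whereas Ebf1 lies near 0.330 with Bnc2 and near 1.25 with Etv1 (red).

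The first class comparison asked whether Ebf genes divide between the Etv1 and Bnc2 branches. Neurons with Etv1 and no Bnc2 (Etv1-only, 161, 594 and 320 cells in mice 1, 2 and 3) were set against neurons with Bnc2 and no Etv1 (Bnc2-only, 28, 182 and 122 cells). Ebf1 was at 1.16, 0.876 and 1.21 UMIs per 10000 in Etv1-only neurons, and at 0, 0.0800 and 0.0666 in Bnc2-only neurons, where the 0 of mouse 1 allows up to 0.210 (3 UMIs in those cells). Ebf1 was higher in Etv1-only neurons in every mouse, as were 17.3% of all genes tested. The difference was 2.37 ± 0.191 (SE) on the log2(UMIs per 10000 + 0.2) scale, which understates changes of low genes, with an adjusted p of 0.0271 (limma, Benjamini-Hochberg over 9585 genes). Across all genes tested, 0.292% were called higher and 0.115% lower in Etv1-only neurons, Etv1 and Bnc2 themselves included, and Ebf1 was among those called higher. None of the 10 EBF partners tested was called. The call was lost with a pseudocount of 0.05 (adjusted p = 0.0584) and with no filter on low genes (adjusted p = 0.145), with the same direction. The shares after thinning to 3000 UMIs were 20, 16.0 and 20.4% in Etv1-only neurons and 0, 2.59 and 1.16% in Bnc2-only neurons.

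Ebf3 had the opposite order. It was at 0.332, 0.554 and 0.477 UMIs per 10000 in Etv1-only neurons and at 0.912, 1.34 and 1.45 in Bnc2-only neurons. It was lower in Etv1-only neurons in every mouse, as were 19.8% of all genes tested. The difference of -1.13 ± 0.132 on the log2 scale just missed the threshold (limma, adjusted p = 0.0529), and passed it when cluster 10, the cluster highest in smooth muscle markers, was left out (-1.29, adjusted p = 0.0336) and when cells were thinned (-1.43, adjusted p = 0.0146). Without mouse 1 the difference was -1.16 ± 0.0993. Of the 28 Bnc2-only cells of mouse 1, 7 fell in cluster 10, and smooth muscle markers there summed to 167 UMIs per 10000 against 22.2 in Etv1-only cells of the same mouse, while in mice 2 and 3 they were at 18.4 and 7.07 against 17.2 and 14.2. Glia markers summed to 17.8, 14.9 and 13.2 in Etv1-only and 16.8, 7.87 and 6.06 in Bnc2-only neurons. Of the 9 tested, 6 were positive and 0 negative in every mouse, where 17.3% of all genes were positive and 19.8% negative. The part of these markers in the Ebf differences was not tested beyond leaving out cells. Without cluster 10 the Ebf3 level of the Bnc2-only cells was 1.34, 1.35 and 1.45 in the 3 mice.

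Neurons with both Etv1 and Bnc2 (17, 119 and 99 cells) had intermediate values. Ebf1 was at 0.0920, 0.417 and 0.190 and Ebf3 at 0.828, 0.622 and 0.977 UMIs per 10000, each between the values of the single-gene classes of the same mouse. Ebf4 was at 0.101, 0.125 and 0.142 in Etv1-only neurons and at 0, 0.120 and 0.150 in Bnc2-only neurons, where the 0 again allows 0.210, a difference of 0.19 ± 0.180 (adjusted p = 0.682) whose 95% interval ran from -0.26 to 0.64. Ebf2 was below the level needed for testing in every comparison.

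The second comparison set nitrergic against cholinergic neurons, that is Nos1-only (130, 531 and 301 cells) against Chat-only cells (16, 148 and 113), many of which are also in the first comparison. Ebf1 was at 1.02, 0.893 and 1.01 UMIs per 10000 in Nos1-only neurons and at 0.302, 0.235 and 0.117 in Chat-only neurons. It was higher in Nos1-only neurons in every mouse, as were 16.6% of all genes tested. The 0.302 of mouse 1 came from fewer than 3 UMIs. The difference was 1.52 ± 0.188 but did not pass the threshold (limma, adjusted p = 0.0747). Without mouse 1, which had 16 Chat-only cells, it was 1.63 ± 0.138 (adjusted p = 6.42e-06), and without mouse 2 it was 1.61 (adjusted p = 0.0447). Ebf3 was at 0.379, 0.587 and 0.578 in Nos1-only and at 0.454, 1.28 and 1.48 in Chat-only neurons. The difference was -0.73 ± 0.217 (adjusted p = 0.273) with all mice and -1.01 ± 0.106 (adjusted p = 3.35e-05) without mouse 1, whose Chat-only value came from 3 UMIs. A fit on 2 mice has few residual degrees of freedom and borrows its spread across genes, so its small p-values say less than the size of the difference. Of 9482 genes tested with all mice, 0.0844% were called in each direction, with no Ebf gene among them. Smooth muscle markers summed to 34.7, 21.1 and 13.5 UMIs per 10000 in Nos1-only and 20.7, 7.33 and 8.66 in Chat-only neurons. Glia markers were at 13.7, 14.5 and 12.04 against 11.8, 9.08 and 6.06, and fibroblast and pericyte markers at 11.3, 4.20 and 2.68 against 6.501, 2.51 and 2.22. Their part in the differences was not tested.

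**Figure D3:**
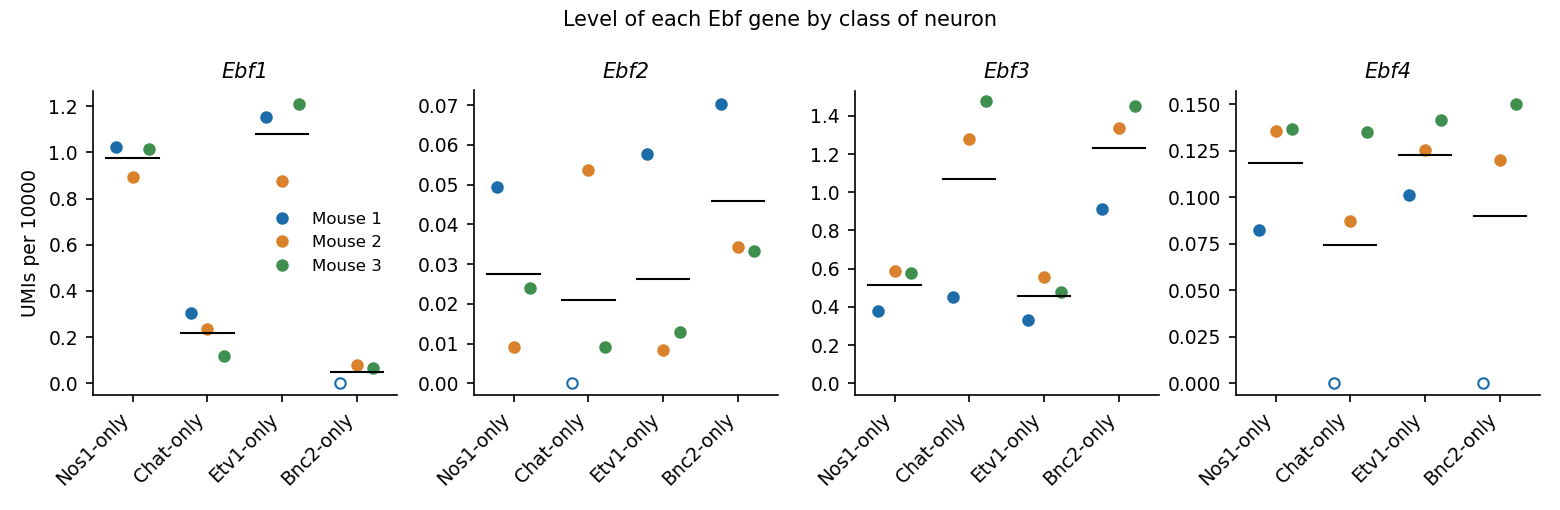
Level of each Ebf gene in UMIs per 10000 (each panel has its own axis) in neurons with Nos1 and no Chat, Chat and no Nos1, Etv1 and no Bnc2, and Bnc2 and no Etv1; points are mice, open points mark no UMI, and lines are means of the 3 mice. Ebf1 lies between 0.876 and 1.21 in Etv1-only and at or under 0.0800 in Bnc2-only neurons, and Ebf3 has the reverse order.

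To see which of the class genes the Ebf levels went with, the classes were crossed. Among Nos1-only neurons, Ebf1 was at 1.29, 1.03 and 1.33 UMIs per 10000 in the Etv1-only cells (108, 420 and 220 cells). In the Bnc2-only cells that carried Nos1 and no Chat (2, 21 and 15 cells) there was 1 Ebf1 UMI in all, in mouse 2, while Ebf3 was at 1.24 and 1.58 in mice 2 and 3. Chat-only cells that were Bnc2-only (2, 78 and 51 cells) had 7 Ebf1 UMIs, all in mouse 2, and Ebf3 at 1.60 and 1.54 in mice 2 and 3. In mice 2 and 3, the measured values of Bnc2-only neurons were thus at least 1.24 for Ebf3 and at most 0.0983 for Ebf1 with either Nos1 or Chat. The Ebf1 value of 0 with Nos1 in mouse 3 rests on 15 cells, in which up to 3 UMIs are allowed. The 0.0983 is therefore the highest measured value and not a bound. Cells with neither Nos1 nor Chat had the same order, as Ebf1 was at 0.739, 0.343 and 0.770 in those that were Etv1-only against 0, 0.0907 and 0.169 in those that were Bnc2-only, and Ebf3 at 0.0528, 0.436 and 0.428 against 1.07, 1.24 and 1.28. Chat-only cells that were Etv1-only were few (31 cells), with Ebf1 at 0.173 and 1.07 and Ebf3 at 0.978 and 0.0975 in mice 2 and 3, so no order can be read there. These crossed values were not tested, because mouse 1 gave 2 cells in several classes.

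Next, cells with and without each Ebf gene were compared across all genes, to see what else went with it. Ebf1-positive neurons (40, 204 and 134 cells) were richer in the peptides of inhibitory motor neurons. Galanin (Gal) was at 138 UMIs per 10000 in Ebf1-positive against 15.7 in Ebf1-negative neurons (means of 3 mice), a log2 difference of 3.07 ± 0.198 (limma, adjusted p = 0.00750), with 3.31, 3.36 and 2.54 in mice 1, 2 and 3. The CART prepropeptide gene Cartpt differed by 2.34 ± 0.222 and Vip, a relaxant of gut muscle, by 2.23 ± 0.152. Ass1, which recycles citrulline to arginine for nitric oxide synthesis, was higher by 1.06 ± 0.117. Of the 7 inhibitory transmitter and peptide genes, these 4 passed the test and none fell, where 0.168% of all genes tested were called higher. Nos1 (0.80, adjusted p = 0.0634) and Npy (0.45, adjusted p = 0.171) were positive in every mouse without passing, and Gch1 was at -0.29, negative in every mouse. The median of the list was 1.06 against -0.06 over all 9529 genes. Between Etv1-only and Bnc2-only neurons, Gal, Cartpt, Vip and Ass1 differed by 4.22, 3.80, 3.22 and 2.70. There 6 of the 7 genes were called higher and 0 lower, where 0.292% and 0.115% of all genes were. Ebf1-positive and Ebf1-negative cells were not compared within a branch, so the part of the branch in these differences was not tested.

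Among transcription factors, Etv1 was higher in Ebf1-positive neurons (1.12 ± 0.0984) and Bnc2 lower (-1.40 ± 0.135), the 2 that passed of 17 enteric neuron factors tested, where 0.168% of all genes were called higher and 0.0420% lower. Satb1 was at -0.71 and Casz1 at -1.23, both negative in every mouse and neither past the threshold. In all, 9 of the 17 were negative and 2 positive in every mouse, where 29% of all genes were negative and 13.8% positive in every mouse. The neurogenic factor Neurod6 was at 1.40 (adjusted p = 0.0809). No gene passed among the 6 excitatory transmitter genes (median -0.65, Tac1 at -1.13), the 12 neurogenic factors, the 7 sensory genes, or the 10 partners tested, which comprise the E proteins Tcf3, Tcf4 and Tcf12, their Id inhibitors, Foxo1 and the zinc finger proteins Zfp423 and Zfp521 that bind EBF proteins. In the partner list 5 genes were negative in every mouse, with Tcf12 at -0.44, Tcf3 at -0.37, Id2 at -0.54, Foxo1 at -0.55 and Zfp521 at -0.15.

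In total 16 genes (0.168% of those tested) were called higher and 4 (0.0420%) lower in Ebf1-positive neurons, and 1709 had an unadjusted p under 0.05. Besides the genes above, the 10 largest increases included Tmc3 (1.65), the receptor tyrosine kinase gene Ltk (1.22), Rprml (1.20), Nrip3 (1.16) and Slitrk4 (1.15), a synaptic adhesion gene. The genes that fell, besides Bnc2, were the kappa opioid receptor gene Oprk1 (-1.33), the splicing regulator Rbfox1 (-1.28) and the Wnt effector Tcf7l2 (-0.85). Positive cells were deeper than negative ones, with medians of 10568.5 and 7671 UMIs. After thinning, 27 genes were called, with Gal at 2.42, Vip at 2.24, Cartpt at 1.996 and Bnc2 at -1.55, and Slitrk4, Rbfox1 and Tcf7l2 missed the threshold. Without the mouse as a block no gene was called. Smooth muscle markers summed to 48.5, 16.2 and 13.6 UMIs per 10000 in Ebf1-positive and 81.8, 17.7 and 11.3 in Ebf1-negative cells, and their part in the differences was not tested.

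Ebf3-positive neurons (44, 448 and 261 cells) gave 0 called genes of 9608 in limma (0% called), with 1353 at an unadjusted p under 0.05. Leaving out mouse 1 gave 1645 calls, leaving out mouse 2 gave 26 and leaving out mouse 3 gave 34. The values of the lists are therefore given without a call. Bnc2 was at 0.89 ± 0.116 (adjusted p = 0.118), Satb1, a chromatin organiser, at 0.73 ± 0.0820 (adjusted p = 0.0982), Hand2 at 0.48 and Phox2a at 0.72, each positive in every mouse. Of the 17 enteric neuron factors tested, 7 were positive in every mouse and 4 negative, namely Pbx3 (-0.58), Meis2 (-0.46), Tbx2 (-0.42) and Tbx3 (-0.22), with a list median of 0.09. Of the 12 neurogenic factors tested, 7 were positive in every mouse and none negative in every mouse, where 24% and 16.6% of all genes were, with a list median of 0.35 against 0.02 over all genes. They included St18 (0.78), Sox11 (0.69), Myt1 (0.48) and Dcx (0.42). Of the 10 partners tested, 3 were positive in every mouse, namely Zfp423 (0.61), Zfp521 (0.40) and Tcf4 (0.52). Another 2 were negative in every mouse, Id4 (-1.01) and Id3 (-0.51). These counts are near the 24% and 16.6% of all genes, and the list median was -0.08. All 7 sensory and interneuron genes tested were negative in every mouse, among them Calcb at -1.80, Nmu at -1.66, Sst at -1.22 and Nog at -0.99. Of the 10 smooth muscle markers 8 were negative in every mouse, their sum being 26.1, 13.9 and 10.2 UMIs per 10000 in Ebf3-positive and 86.4, 20.4 and 13.05 in Ebf3-negative cells. All 6 fibroblast and pericyte markers tested were negative in every mouse (median -0.56). Of the 9 glia markers tested 3 were negative and 0 positive in every mouse, and the list summed to 18.5, 11.04 and 8.61 in Ebf3-positive against 15.9, 16.4 and 14.9 in Ebf3-negative cells, with 9 of 9 called lower without mouse 1. The part of such cells in the other differences was not tested.

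The Ebf genes themselves were then read in these comparisons. Ebf3 was at -0.28 ± 0.195 in Ebf1-positive neurons (adjusted p = 0.468), and -0.54 ± 0.0971 without mouse 1. Ebf1 was at -0.08 ± 0.240 in Ebf3-positive neurons (adjusted p = 0.893), and -0.44 ± 0.0873 without mouse 1. Leaving out mouse 3 turned the latter to 0.22. Ebf4-positive neurons (10, 113 and 82 cells) gave 0 calls of 9574 genes in limma (0% called), with 96 at an unadjusted p under 0.05. Ebf1 was at 0.25 ± 0.233 and Ebf3 at -0.06 ± 0.152 between them and Ebf4-negative neurons.

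**Figure D4:**
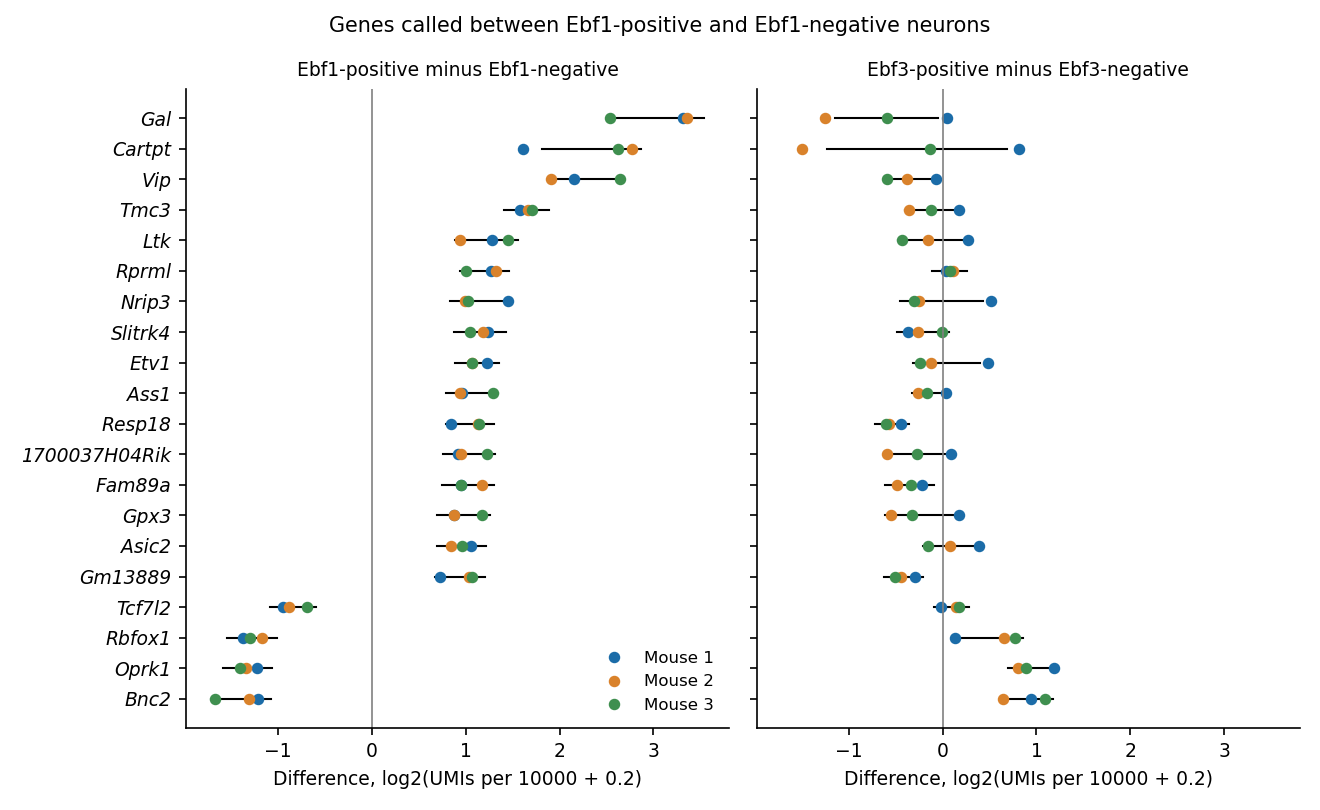
Differences in log2(UMIs per 10000 + 0.2) of the 20 genes called between Ebf1-positive and Ebf1-negative neurons (left) and the same genes between Ebf3-positive and Ebf3-negative neurons (right); points are mice, lines are 95% intervals of the limma fit. On the left every mouse has the sign of the call, and on the right Bnc2 and Oprk1 lie above 0 in each mouse while Gal, Cartpt and Vip do not.

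The promoters of the genes called in the Ebf1 comparison were searched for the same core. Of the 16 genes called higher, 13 had a RefSeq promoter, and 7 of these genes held the core (Gal, Cartpt, Vip, Ltk, Rprml, Ass1 and Fam89a). None of the 3 genes called lower that had a promoter held it. Counted by gene in the same way, the core was in a promoter of 21.8% of the 7538 tested genes that had one. These counts were not tested, base composition was not matched, and a match describes letters and not binding. The windows of the 3 peptide genes with the largest differences are shown as above, from chr19:3414541-3414570, minus strand (Gal, 15 bases before the start), chr13:99900900-99900929, minus strand (Cartpt, 235 bases before) and chr10:5639110-5639139, plus strand (Vip, 97 bases before).
Gal: ggtcacagcggCCCTTGGGactcgcaggag
Cartpt: tcagctctggcCCCTAGGGaagcttccctg
Vip: gacctgttcatCCCATGGGatcactactgt

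The cells fell into 13 clusters (numbered 0 to 12), over which Ebf1 and Ebf3 had separate peaks. Clusters were made from the same values, so these levels are a description. Ebf1 was highest in cluster 12, led by H2-Q2, Cacna1i and Trhde, where 18 of 21 cells (85.7%, exact 95% interval 63.7-97.0) held it at 7.41 UMIs per 10000. Next came cluster 7 (Col25a1, Greb1l and Dpp10, 1.37), cluster 0 (Cartpt, Grp and Sncg, 1.18), cluster 11 (Slc17a6, Ano5 and Nxph2, 1.16), cluster 3, which held mouse 1 cells alone (0.795), and cluster 5 (March11, Aldh1a3 and Npy, 0.651). Cluster 7 was at 0.887 in mouse 2 and 2.10 in mouse 3, a spread that covers clusters 0 and 11, so the order below cluster 12 is not settled. No Ebf1 UMI was found in the 94 cells of cluster 8, which allows a share of cells with a detected UMI of up to 3.85% and does not limit the share that express the gene. Cluster 0 held 52 of the 95 cells with 4 or more Ebf1 UMIs and cluster 12 held 13.

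Ebf3 was highest in clusters 4 (Lrp1b among its leading genes, 1.89 UMIs per 10000), 6 (Neurod4, Igfbpl1 and Cox8b, 1.503) and 8 (Krtdap, Ffar2 and Ffar3, 1.38). These are the clusters in which Bnc2 was in the most cells, 78.6, 61.4 and 81.9%, and in them Ebf1 was at 0.0308, 0.119 and 0. In mice 2 and 3 the Ebf3 level was 1.79 and 1.98 in cluster 4, 1.23 and 1.83 in cluster 6, and 1.35 and 1.44 in cluster 8, so clusters 6 and 8 could not be ordered. Clusters 7 and 12 carried both genes, with Ebf3 at 1.04 and 0.981. Other clusters held both as well. Cluster 5 had 11.1% of all Ebf1 UMIs and 10.7% of all Ebf3 UMIs, and cluster 1 had 8.75% and 15.5%. The lowest Ebf3 level was in cluster 9 (Edn1, Gpr149 and Nog), with 1 UMI in 66 cells. Of these, 47 came from mouse 1, the mouse with the lowest Ebf3 level over all cells, and held 0.0426 UMIs per 10000, and 11 came from mouse 3, with no Ebf3 UMI. Cluster 9 had instead the highest Ebf2 share (4.55%, 3 cells), and Ebf4 was in 2.17 to 19.0% of the cells of each cluster.

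**Figure D5:**
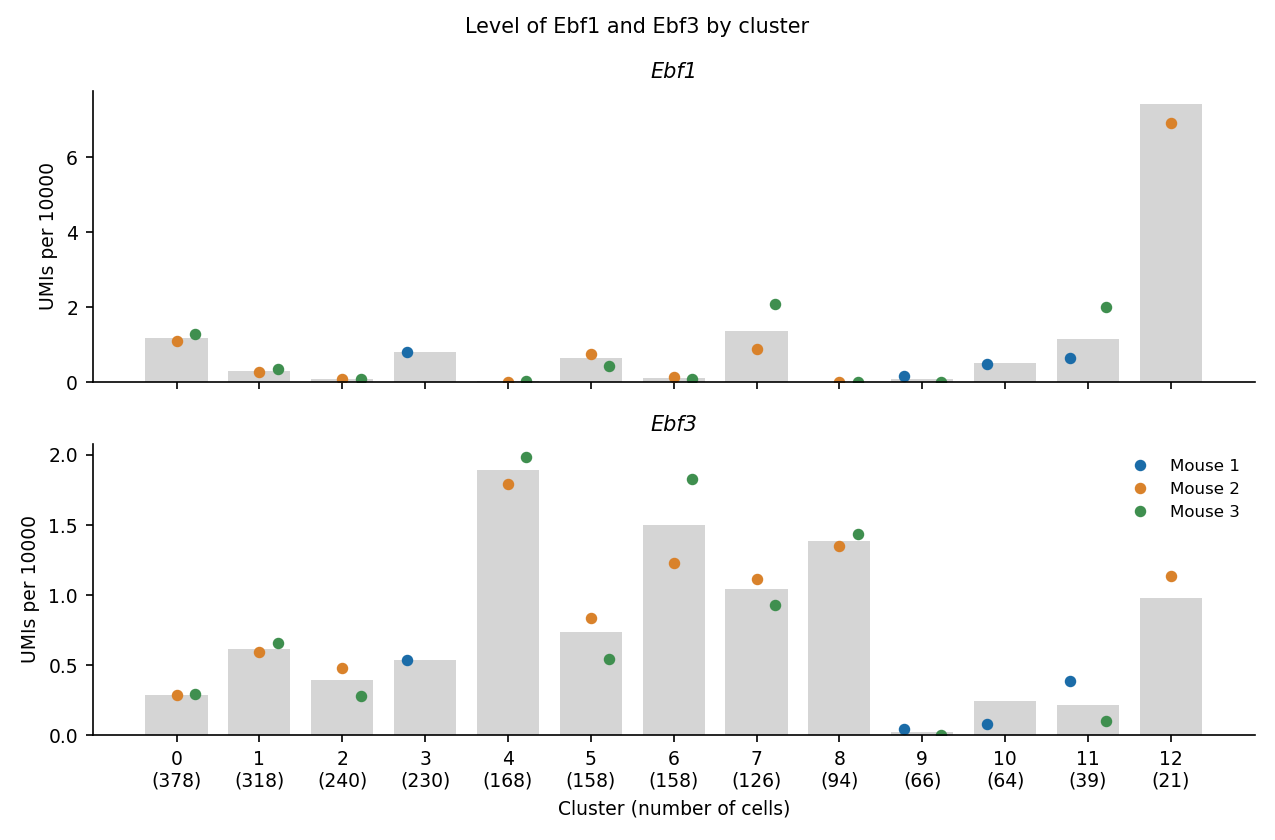
Level of Ebf1 (top) and Ebf3 (bottom) in UMIs per 10000 in each of 13 clusters, with the number of cells in parentheses; bars, all cells pooled; points, each mouse with at least 10 cells in the cluster. Ebf1 reaches 7.41 in cluster 12, and Ebf3 is highest in clusters 4, 6 and 8, in which Ebf1 is at or under 0.119.

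In cluster 12, the factors Neurod6 (81.0% of cells), St18 (71.4%) and Trps1 (61.9%) were detected along with Ebf1. St18 was also in 74.7% of cluster 5 and 78.5% of cluster 6, and Trps1 in 64.1% of cluster 11. The next highest share of Neurod6 was 10.6%, in cluster 0. Gad2, which encodes an enzyme that makes GABA, was in 4 of 21 cells of cluster 12 (19.0%). Gad1, the other Gad gene counted, was in 0% of cluster 12 and 2.91% of cluster 0. The cells of cluster 12 came from mice 2 and 3 (16 and 5 cells). The combination was counted in all cells after the cluster values were seen. Ebf1 with Neurod6 was found in 62 cells (7, 41 and 14 in mice 1, 2 and 3), Ebf1 with Neurod6 and St18 in 34 (1.65% of all cells; 2, 27 and 5), and all 4 factors in 19, of which 9 lay in cluster 12. Gad2 was found in 8 of 2060 cells (0.388%), none of them from mouse 1. Of these, 6 held Ebf1 and 4 lay in cluster 12. Cluster 12 was a separate cluster at the chosen settings and joined cells of cluster 7 at a resolution of 0.3 or with 30 principal components, where the highest Ebf1 level was 2.58 and 2.59.

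Finally, genes were ranked by how closely their level followed that of each Ebf gene over the 13 clusters (Pearson r of log2 levels across clusters, which share libraries and depth, so no p is given). The genes most like Ebf1 were Ltk (0.920), Sh3kbp1 (0.883), Vip (0.883), Etv1 (0.855) and Slitrk4 (0.853). Those most like Ebf3 were Ankrd6 (0.955), Nrg3 (0.931), Nol4 (0.916), Trmt2a (0.909) and the nicotinic receptor gene Chrna7 (0.878). For Ebf4 they were Ano8 (0.933), Lss, Nsd2, Atg2b and Dync1h1 (0.910), and for Ebf2, which rests on 40 UMIs, Lrrc75b (0.928), Lingo2, Psd3, Calcrl and Cbln2 (0.897). Ebf1 and Ebf3 had an r of -0.08 with each other, and -0.59 and 0.58 with Bnc2.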

How the data were processed

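The authors aligned reads with Cell Ranger (build mm10 per the submitters' processing notes; version not given in the sources used here), filtered cells by genes detected and mitochondrial share, left out some genes, and kept the neurons. The deposited values are the natural log of 1 plus UMIs per 10000. Whole UMIs were recovered in 100% of values (tolerance 1e-06) by dividing by the smallest value of each cell, giving cell totals of 2140 to 24945 UMIs, of which 1.90 to 34.0% fall in genes not listed. No column lay outside the samples. UMIs were summed per mouse and class and tested with limma 3.58.1 (log2(UMIs per 10000 + 0.2), mean of at least 0.1, mouse as block, trend, Benjamini-Hochberg, threshold 0.05), since deposited log values are not counts. Both sums of a mouse come from 1 library, and their deviations correlated at 0.417 to 0.747. Clusters were made with Seurat 5.3.0 (2000 variable genes, 20 components, resolution 0.5), and Scrublet (scanpy 1.11.5) called 10 doublets, removed only as an alternative. Thinning left out 178 cells, and 2 barcodes occurred in 2 libraries. Genes were named by rule: list members, the 10 largest called differences each way, the 5 closest over clusters, 3 leading genes per cluster. The members and lists were chosen with earlier results of these data known. Tests were checked on simulated data in which only genes with higher mean levels than the Ebf genes were changed, with the same added spread in every mouse. That check does not cover genes as low as the Ebf genes or a mouse that stands apart. Binomial and Poisson intervals cover counting error only. Main limma intervals and p-values rest on the spread, between 3 mice, of the differences within a mouse. That spread is partly borrowed from other genes in the main fits too.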

Additional observations from a re-analysis of the deposited data

How the results depend on the processing

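In the class comparisons the Ebf1 and Ebf3 differences kept their sign under every alternative run, while calls depended on the mice and settings. Settings without cluster 10, with limma's arrayWeights or with clusters in the expected co-detection were chosen after seeing the data. Fits left with 2 mice or with weighted mice borrow their spread across genes, and their counts are large. Mouse 1 had too few cells for the 2-UMI and thinned fits of Nos1-only against Chat-only, the 2-UMI fit of Etv1-only against Bnc2-only, and 4 fits of Ebf4, which rest on mice 2 and 3, and Ebf4 at 2 UMIs could not be fitted. Smooth muscle marker-rich cells (at least 5 of 10 markers detected) were 955 cells, 46.4% of all. Glia marker-rich cells (at least 4 of 10) were 1022 cells, 49.6% of all. Leaving out either set thus removed a large part of the cells. The causes of the changes below were not tested.

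Requiring 2 UMIs gave shares of 9.21% for Ebf1, 0.158% for Ebf2, 13.3% for Ebf3 and 0.779% for Ebf4. Thinning gave 10.9% for Ebf1, 0.769% for Ebf2 and 3.29% for Ebf4. The Ebf1 level was 0.595 as a mean over cells, 0.596 after thinning and 0.696 without glia marker-rich cells. The co-detection ratios of this paragraph use the number expected from mouse alone, without cell depth, unlike the depth-adjusted ratios above. Co-detection at 2 UMIs was 0 for Ebf1 with Ebf2 and Ebf2 with Ebf4, 2.78 for Ebf1 with Ebf4 and 2.65 for Ebf2 with Ebf3. Only 2 cells held 2 Ebf2 UMIs and 1 cell held 3, and for Ebf4 these were 16 cells and 1 cell. That is too few to place these ratios. After thinning, co-detection was 0.706 for Ebf1 with Ebf4, 0.474 for Ebf2 with Ebf3 and 0 for Ebf2 with Ebf4. Leaving out a mouse gave 0 to 1.17 for Ebf1 with Ebf2 and 0 to 1.06 for Ebf2 with Ebf4. The highest cluster level of Ebf1 was 2.58 at resolution 0.3 and 2.59 with 30 components.

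Between Nos1-only and Chat-only neurons the count of genes called was 4 with pseudocount 0.05, 38 with pseudocount 1, 5 with no filter, 57 with a mean of at least 0.5, 24 to 2010 leaving out a mouse, 2530 with weights, 2448 at 2 UMIs, 1153 thinned, 39 without smooth muscle marker-rich and 40 without glia marker-rich cells. Between Etv1-only and Bnc2-only neurons it was 22, 16 and 5 with those pseudocounts and no filter, 38 to 2852 leaving out a mouse, 2749 with weights, 2781 at 2 UMIs, 73 thinned, and 104 and 21 without those cells. For Ebf1-positive neurons it was 3 with pseudocount 1, 0 with no filter, 41 centred on the median gene, 0 without the mouse as block, 94 to 2968 leaving out a mouse, 3278 with weights, 2 at 2 UMIs, and 31 and 12 without those cells. For Ebf3-positive neurons it was 11 with a mean of at least 0.5, 26 to 1645 leaving out a mouse, 1384 with weights, 1 as a mean over cells, 17 thinned and 17 without smooth muscle marker-rich cells. For Ebf4-positive neurons it was 0 to 66 leaving out a mouse, 47 with weights, 15 thinned, 62 and 112 without those cells and 64 without cluster 10. Without the replicate block the other counts were 15, 29, 0 and 0. Of the values of called genes, 248 of 288, 531 of 678 and 246 of 355 stayed past the threshold in the first 3 comparisons, none with the other sign.

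Ebf1 between Nos1-only and Chat-only neurons passed with pseudocount 1 (0.70), a mean of at least 0.5 (1.52), weights (1.49), 2 UMIs (1.61), thinning (2.05) and without glia marker-rich cells (1.88), with 1.31 to 1.63 leaving out a mouse. Ebf3 passed there with weights (-0.95), 2 UMIs (-1.16) and thinning (-1.21), with -1.01 to -0.54 leaving out a mouse. Between Etv1-only and Bnc2-only neurons Ebf1 missed with pseudocount 0.05 (3.62) and no filter (2.37). Ebf3 passed with a mean of at least 0.5 (-1.13), weights (-1.10), a mean over cells (-1.28), 2 UMIs (-1.25), thinning (-1.43), without smooth muscle marker-rich cells (-1.40) and without cluster 10 (-1.29), with -1.17 to -1.05 leaving out a mouse. Signs turned for small differences. Ebf4 between Etv1-only and Bnc2-only neurons was -0.0055 without mouse 1, and was under the filter without mouse 2 or 3. Ebf4 in Ebf1-positive neurons turned to -0.055 with weights, -0.061 as a mean over cells and -0.16 thinned, and ran from -0.054 without mouse 1 to 0.053 leaving out a mouse. Ebf4 in Ebf3-positive neurons turned to -0.065 with weights, -0.026 without smooth muscle marker-rich cells and -0.021 without cluster 10, and ran from -0.074 without mouse 1 to 0.15 leaving out a mouse. Ebf1 in Ebf3-positive neurons turned to 0.078 at 2 UMIs and ran from -0.44 without mouse 1 to 0.22 without mouse 3. Ebf1 in Ebf4-positive neurons turned to -0.012 with weights, -0.22 thinned, -0.81 without smooth muscle marker-rich cells (limma, adjusted p = 0.00644), -0.37 without glia marker-rich cells and -0.041 without cluster 10, and ran from -0.044 without mouse 1 to 0.48 without mouse 3. Ebf3 in Ebf4-positive neurons turned to 0.096 as a mean over cells and 0.20 thinned, and ran from -0.14 without mouse 1 to 0.019 without mouse 3.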
